A study of Mus musculus with 2 samples.

Results

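The genes described here are the matrix proteases and their inhibitors: the matrix metalloproteinases (Mmp), the tissue inhibitors of metalloproteinases (Timp), the secreted ADAMTS proteases and the ADAMTS-like proteins (Adamtsl). They were taken by symbol, and 50 of the 31053 features in the count tables matched, of which 22 were Mmp, 4 Timp, 19 Adamts and 5 Adamtsl genes. The cells came from full-thickness back skin of C57BL/6 mice aged 12 months. One library was made from 1 Card14KI mouse, whose Card14 carried the knock-in on both alleles (+/+), bred to model the scaling skin disease pityriasis rubra pilaris, and the other from 1 WT mouse. Skin was digested with enzymes for 73 min, dead cells were removed, and the transcripts of single cells were counted from their 3' ends as unique molecular identifiers (UMIs).

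Matrix metalloproteinases are zinc proteases, most of them secreted as inactive precursors, that cut collagens, proteoglycans and other proteins of the extracellular matrix. Timp proteins bind their active sites and hold them in check, Timp3 also inhibiting several ADAMTS enzymes. ADAMTS proteases trim procollagens and cut the large proteoglycans versican and aggrecan, and ADAMTS-like proteins share their ancillary domains but lack the protease. In skin, dermal fibroblasts, macrophages, neutrophils and wound-edge keratinocytes are the known sources.

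After filtering, 2835 Card14KI cells with 38463347 UMIs and 4161 WT cells with 51121545 UMIs remained, with a median of 6876 UMIs per cell in Card14KI and 7318 in WT. Cells were clustered without using the 50 genes, giving 33 clusters that were named from marker genes. Only 2 cell barcodes were shared between the libraries. Fibroblasts made up 49.1% of the Card14KI cells and 51.9% of the WT cells, and all 6 fibroblast markers were detected in both libraries. The makeup of the fibroblasts differed: a cluster led by Spp1, Tagln, Acta2 and Lrrc15 (cluster 8, contractile dermal sheath-like) held 23 Card14KI and 246 WT cells, and a collagen-rich cluster led by Lpl and Postn (cluster 10) held 33 Card14KI and 224 WT cells. Pi16-marked fibroblasts were 552 Card14KI and 396 WT cells. With 1 mouse per group there was no test. A level is the sum of a gene's UMIs over the cells of a class per 1000000 UMIs of that class (CPM), and a ratio is the Card14KI level over the WT level. A gene was called in a class when it had at least 20 UMIs in both libraries together and its ratio was 2 or more or 0.5 or less. Intervals are 95% exact intervals and cover counting error only, not the spread between mice.

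Several Mmp genes lie close together on chromosome 9 (GRCm38, GENCODE gene spans). Among them are Mmp13 at 7272514 to 7283331, Mmp12 at 7344381 to 7369499, Mmp3 at 7445822 to 7455975 and Mmp10 at 7502352 to 7510240, all on the plus strand. Mmp9, Mmp11, Mmp14 and Mmp2 lie elsewhere, on chromosomes 2, 10, 14 and 8. In all, 9 of the 22 Mmp genes lie between 7 and 8 Mb of this chromosome. The 150 bases before the RefSeq start of Mmp13, Mmp12, Mmp3 and Mmp10 are printed, from RefSeq on GRCm38.p6 (plus strand, chr9:7272364-7272513, chr9:7347224-7347373, chr9:7445672-7445821 and chr9:7502192-7502341). These 4 genes were picked because each stretch holds the AP-1 motif, the binding sequence of Fos and Jun proteins. The RefSeq start of Mmp12 lies inside its GENCODE span. Capitals mark the motif.
Mmp13: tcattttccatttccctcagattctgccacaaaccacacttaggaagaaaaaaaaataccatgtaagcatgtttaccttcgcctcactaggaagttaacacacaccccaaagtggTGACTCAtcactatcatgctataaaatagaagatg
Mmp12: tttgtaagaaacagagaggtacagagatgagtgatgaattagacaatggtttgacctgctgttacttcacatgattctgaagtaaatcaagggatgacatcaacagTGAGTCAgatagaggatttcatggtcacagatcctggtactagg
Mmp3: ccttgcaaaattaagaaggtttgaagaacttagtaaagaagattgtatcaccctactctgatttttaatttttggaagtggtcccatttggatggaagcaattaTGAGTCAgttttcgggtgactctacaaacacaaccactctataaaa
Mmp10: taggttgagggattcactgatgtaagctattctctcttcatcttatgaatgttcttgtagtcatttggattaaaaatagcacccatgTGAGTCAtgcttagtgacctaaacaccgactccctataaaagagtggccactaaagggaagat
The motif searched was TGAGTCA, which read on the other strand is TGACTCA, and both strands were counted. It starts at base -35 in Mmp13, -44 in Mmp12, -46 in Mmp3 and -63 in Mmp10, counted from the gene start. Windows of 300 bases, 250 before to 50 after a gene start, were found for 35 of the 50 genes. Of their 38 windows, 6 (15.8%) held the motif, Mmp1b and Mmp7 being the other two genes, and of all 32851 windows 1709 (5.20%) did. All 6 genes are among the 9 neighbouring Mmp genes on chromosome 9, and no window of another member held the motif. Mmp9 was among the genes without a window, so the motif was not searched there. The share is thus that of 1 group of related genes, not of the whole set. These are matches of letters in a window. The transcripts of the 4 genes were held by different cells: Mmp13 and Mmp10 by WT cluster 8 fibroblasts, Mmp12 by mononuclear phagocytes, and Mmp3 by most fibroblast clusters of both libraries.

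At least 1 UMI was found for 48 of the 50 genes. None was found for Mmp1b or Mmp7, 11 had 1 to 99 UMIs, and 37 had 100 or more. Fibroblasts held most of the transcripts of every family, with 89.5% of the Mmp UMIs in Card14KI and 93.4% in WT, 81.3% and 82.4% of the Timp UMIs, 80.4% and 88.1% of the Adamts UMIs, and 86.1% and 87.5% of the Adamtsl UMIs. Summed over the Mmp family, fibroblasts held 1531 CPM in Card14KI and 2532 CPM in WT, a ratio of 0.605 (0.593 to 0.616). This sum carries the uneven makeup of the fibroblasts, since cluster 8 held 248 of the 13658 Mmp UMIs in Card14KI and 15086 of the 45262 in WT. The Timp family stood at 3630 CPM in Card14KI and 3695 CPM in WT, and the Adamts family at 1456 and 1553 CPM. Their ratios were 0.982 and 0.937, and the Adamtsl family stood at 279 CPM in Card14KI and 211 CPM in WT, a ratio of 1.33 (1.26 to 1.40). The direction of the sums depended on the subset: in fibroblasts marked by Pi16 the Mmp sum was 1864 CPM in Card14KI and 1543 CPM in WT, a ratio of 1.21, and the Timp sum 4643 and 6541 CPM, a ratio of 0.710. Among fibroblast clusters with 50 or more cells in each library, the Mmp ratio ran from 0.515 (cluster 12) to 1.24 (cluster 3). The Timp ratio ran there from 0.715 to 0.949, the Adamts ratio from 0.678 to 0.997 and the Adamtsl ratio from 0.926 to 1.37. Among the 5 signs of low RNA quality in fibroblasts, 4 mitochondrial transcripts were lower and Malat1 higher, none of them past 2-fold, and together they summed to 27500 CPM in Card14KI and 32130 CPM in WT. The median mitochondrial share per fibroblast was 1.53% in Card14KI and 2.51% in WT, and its part in the results was not tested.

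**Figure D1:**
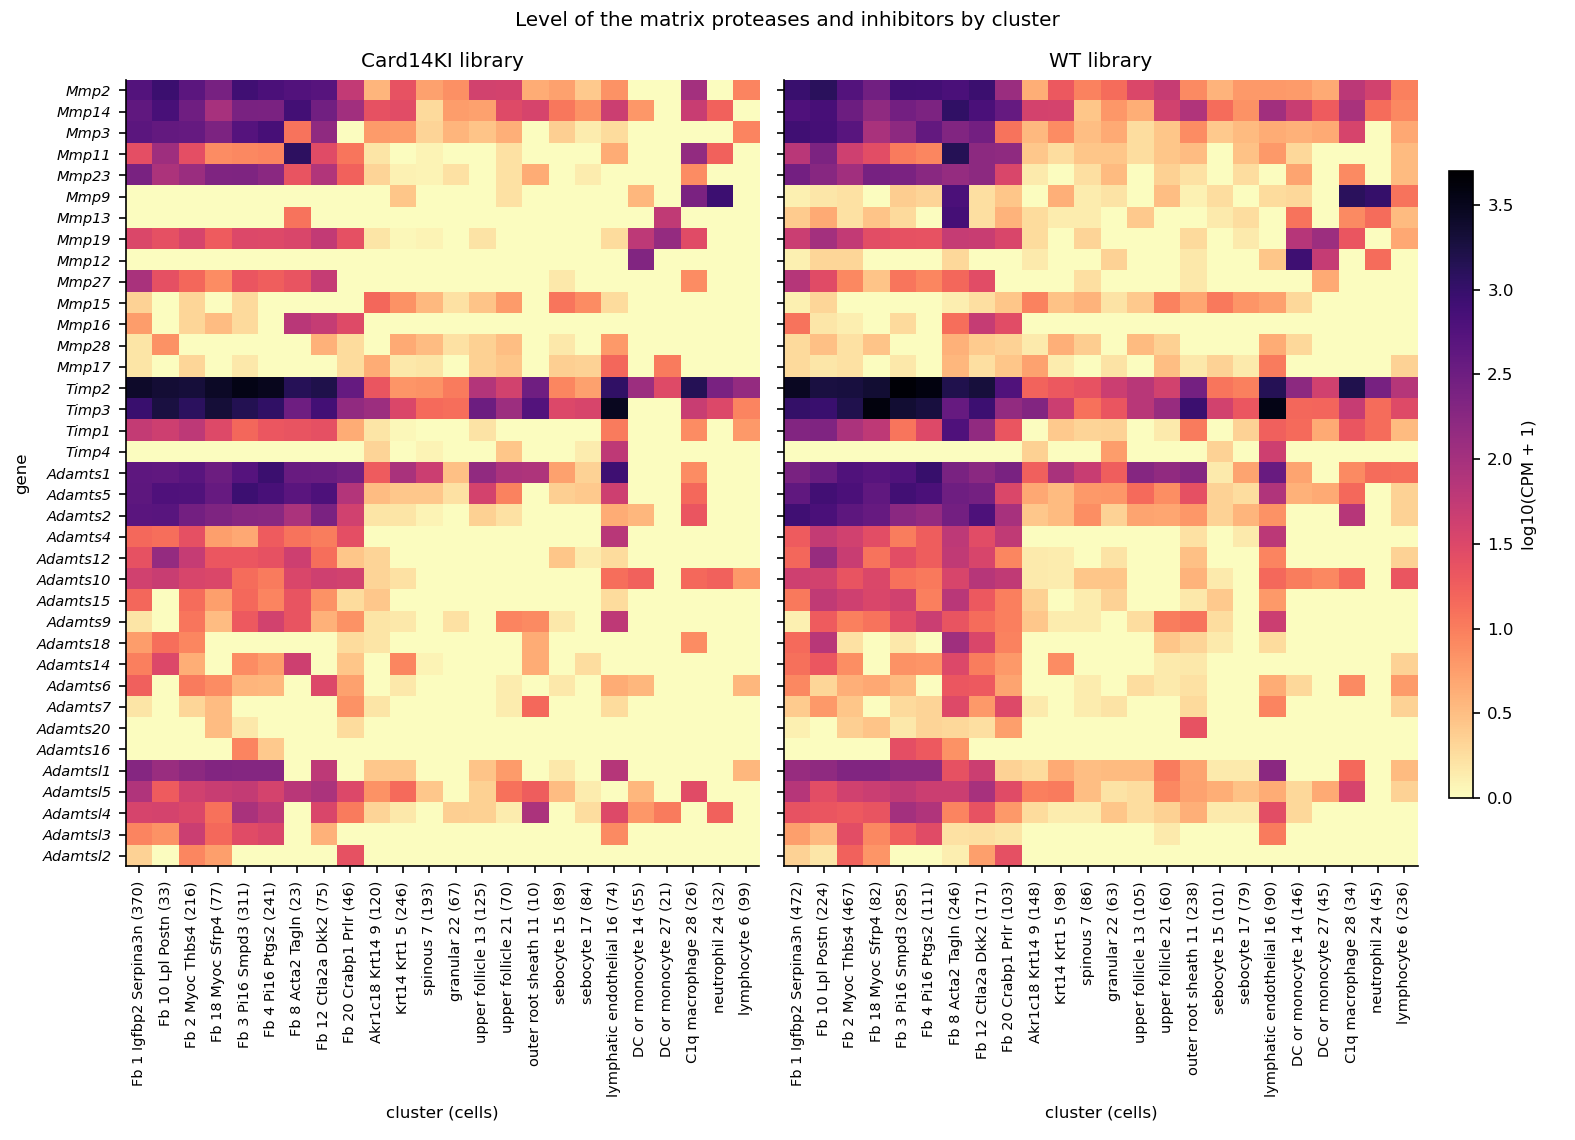
Level of the 37 genes with 100 or more UMIs (rows) in the main clusters (columns, number of cells in brackets), as log10(CPM + 1), in the Card14KI library on the left and the WT library on the right. The darkest squares are in the fibroblast columns (Fb), with Timp2, Timp3 and Adamts1 also in lymphatic endothelial cells, Mmp12 in cluster 14 and Mmp9 in macrophages, neutrophils and WT cluster 8.

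In fibroblasts, 40 of the 50 genes reached 20 UMIs and 18 were called, where 9.46% of all 13430 features tested were called. Of the 18, 1 was higher and 17 were lower in Card14KI, and of all features 3.15% were higher and 6.31% lower. The median log2 ratio of the 40 genes was -0.73, against -0.15 over all features tested. The lower genes were Mmp8, Mmp9, Mmp10, Mmp11, Mmp13, Mmp14, Mmp17, Mmp28, Timp1, Adamts4, Adamts7, Adamts14, Adamts15, Adamts16, Adamts17, Adamts18 and Adamts20, and the higher gene was Adamtsl3. Fibroblasts held 8920149 UMIs in Card14KI and 17873258 in WT, and the minimum of 20 UMIs was on both libraries together. Genes such as Mmp8, Mmp9, Mmp10, Mmp13, Mmp17 and Adamts20 reached it largely through WT. Their low ratios are thus tied to how they were taken in, and they count in the 17 and in the median. Because 3 of the 9 fibroblast clusters had under 50 cells in 1 library, the same was done over the other 6 clusters, with 1290 Card14KI and 1588 WT cells. There 32 genes were tested and 10 were called, all lower in Card14KI, against 6.78% of all features called and 4.86% lower, and the median log2 ratio was -0.40 against -0.13. The 10 were Mmp8, Mmp11, Mmp16, Timp1, Adamts7, Adamts8, Adamts15, Adamts16, Adamts18 and Adamtsl2. Mmp14 was not among them, at 283 CPM in Card14KI and 426 CPM in WT, a ratio of 0.665, and Mmp9, Mmp10 and Mmp13 did not reach 20 UMIs. With the clusters weighted alike in both libraries the log2 ratio of Mmp11 was -0.50, that of Mmp14 -0.48, that of Mmp28 -0.29, that of Adamts14 0.05 and that of Adamtsl3 0.67, so these 5 were not past 2-fold either way.

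**Figure D2:**
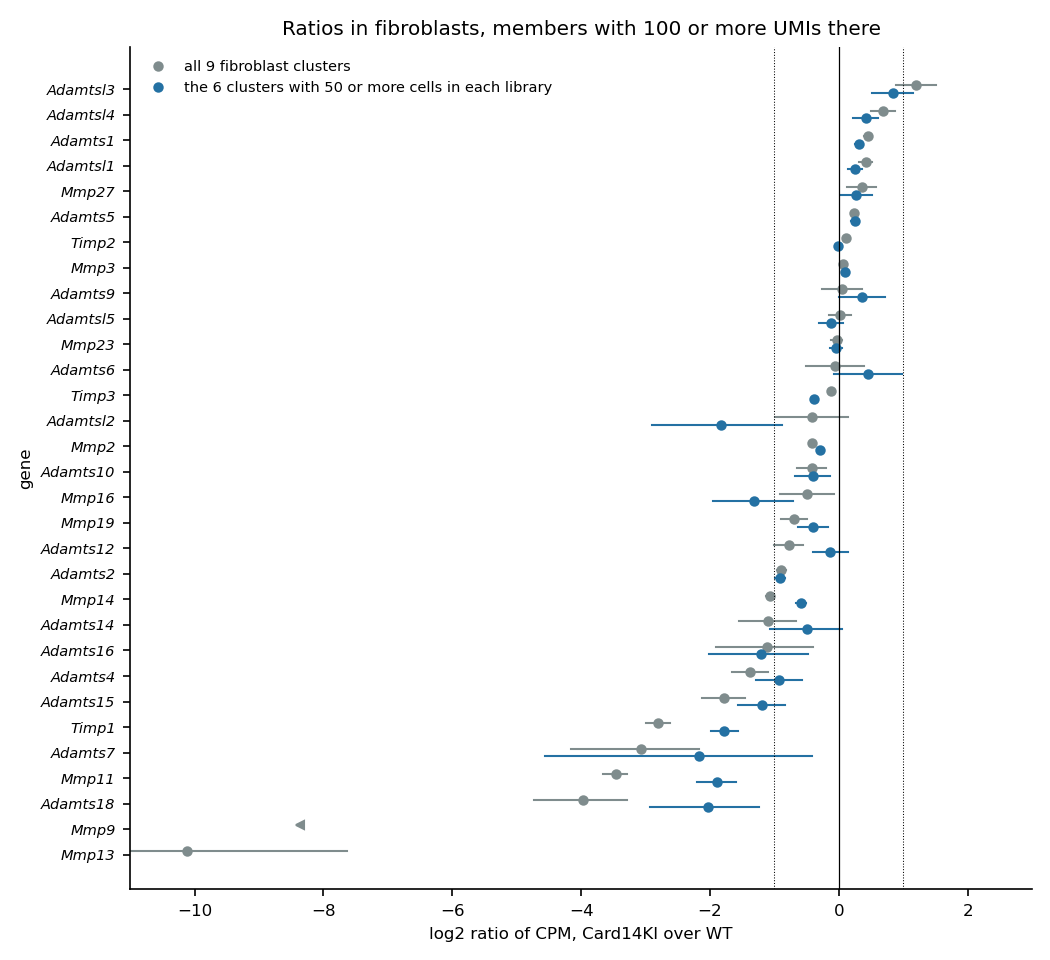
Log2 ratio of CPM (Card14KI over WT, horizontal axis) of the genes with 100 or more UMIs in fibroblasts, over all 9 fibroblast clusters (grey) and over the 6 clusters with 50 or more cells in each library (blue), with 95% counting intervals. The dotted lines mark 2-fold, the triangle for Mmp9 is a bound because Card14KI had 0 UMIs, and the intervals of Mmp13 run off the axis. The blue points of Mmp11, Timp1 and Mmp14 lie closer to 0 than the grey ones.

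The collagenases cut fibrillar collagen at its triple helix. Mmp13, the main collagenase of mouse stroma, had 1 UMI in Card14KI and 2228 UMIs in WT fibroblasts. In WT, 2205 of these lay in cluster 8, in 51 of its 246 cells, and 64.1% of those were in 3 cells with 683, 465 and 265 UMIs. The transcripts therefore came from a few cells of 1 cluster, of which Card14KI supplied 23 cells and 1 UMI. Mmp8, the neutrophil collagenase, had 2 UMIs in Card14KI and 43 in WT fibroblasts. It was best seen in neutrophils, at 185 CPM in Card14KI and 203 CPM in WT.

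The stromelysins have a wide range of substrates and activate other Mmp precursors. Mmp3 (stromelysin-1) had nearly the same level over all fibroblasts, 436 CPM in Card14KI and 415 CPM in WT, but the fibroblast clusters differed in direction. In Pi16-marked, adventitial-like fibroblasts it was called higher, with 620 CPM in Card14KI and 227 CPM in WT, a ratio of 2.73 (2.51 to 2.97). The cell with the most UMIs held 1.53% of them in Card14KI and 4.50% in WT, so no single cell carried the level. At 2000 UMIs per cell, 48.8% of these Card14KI cells and 19.1% of the WT cells had a UMI. In the larger Pi16 cluster (cluster 3) the level was 534 CPM in Card14KI and 158 CPM in WT, a ratio of 3.37 (2.99 to 3.82), with a UMI in 212 of 311 Card14KI and 83 of 285 WT cells. In the Pi16 cluster led by Ptgs2 and Ptx3 (cluster 4) it was 718 CPM in Card14KI and 388 CPM in WT, a ratio of 1.85, which falls short of a call. In the Myoc and Sfrp4 cluster (cluster 18) it was 228 CPM in Card14KI and 89.0 CPM in WT, a ratio of 2.56 (1.80 to 3.68).

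The collagen-rich fibroblasts had the other direction for Mmp3, with 456 CPM in Card14KI and 799 CPM in WT, a ratio of 0.570 (0.529 to 0.614). Their thinned shares of cells with a UMI were 45.8% in Card14KI and 56.3% in WT. Cluster 2 (Myoc, Thbs4) had 374 CPM in Card14KI and 488 CPM in WT, and cluster 12 (Ctla2a, Dkk2, Coch) 156 and 283 CPM. Of the 6 clusters with 50 or more cells in each library, 3 were higher and 3 lower in Card14KI, and in all 6 the counting interval of the ratio left out 1. Lymphocytes, which should not transcribe the gene, held 5.67 CPM in Card14KI and 4.61 CPM in WT. Immediate early genes, which respond to digestion, summed to 11209 CPM in Card14KI and 9827 CPM in WT in cluster 3, and their part in the Mmp3 difference was not tested.

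**Figure D3:**
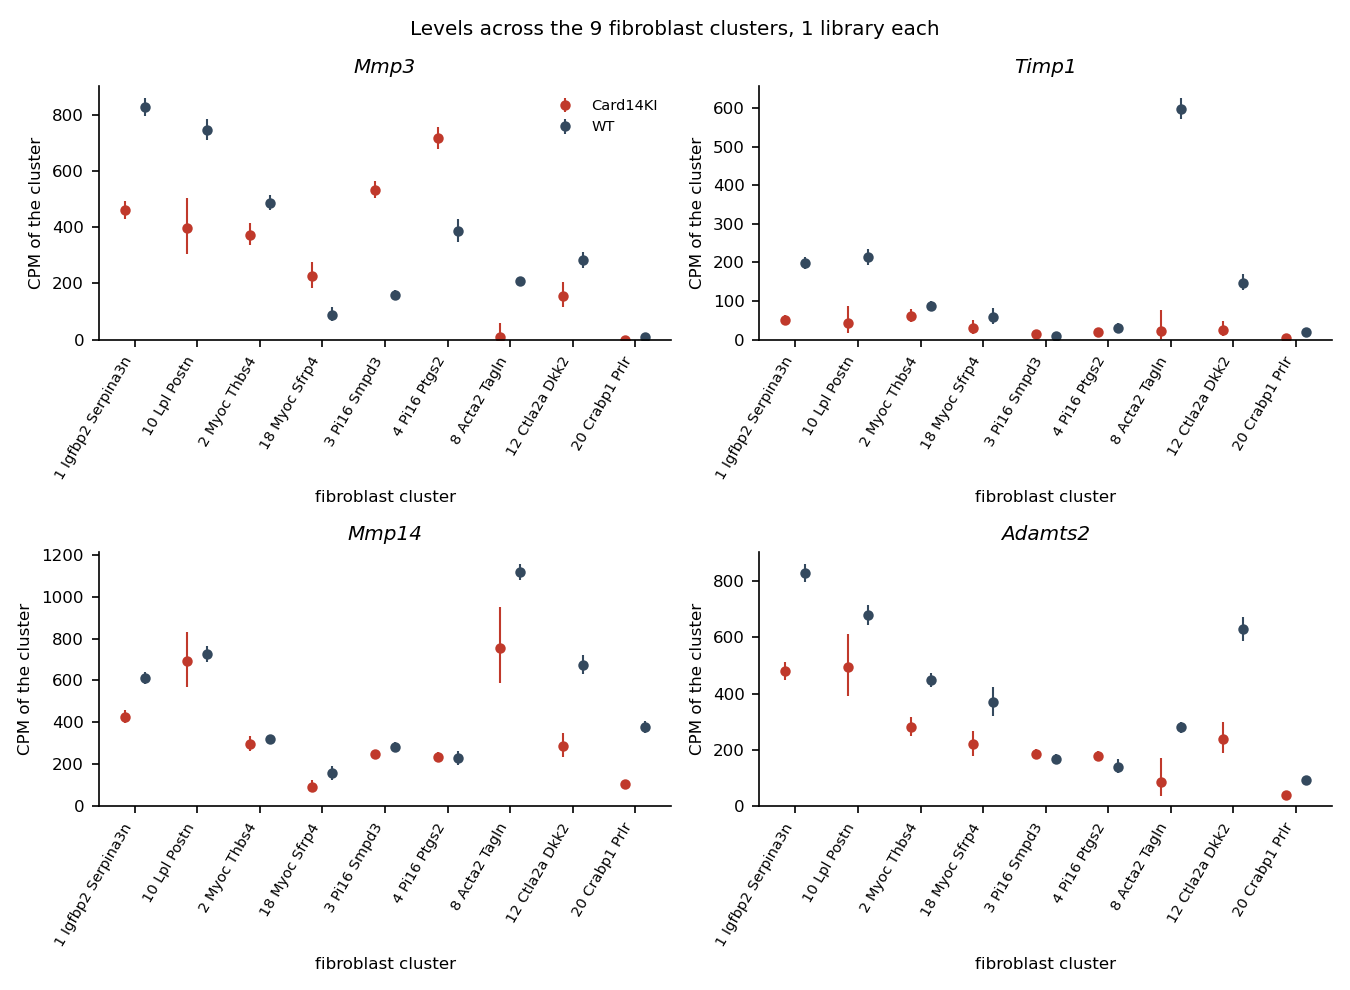
Levels (CPM, vertical axis) of Mmp3, Timp1, Mmp14 and Adamts2 in the 9 fibroblast clusters (horizontal axis), Card14KI in red left of WT in dark blue, 1 library each, with exact Poisson intervals. Mmp3 is higher in Card14KI in clusters 18, 3 and 4 and lower in the others, and Timp1 in WT cluster 8 reaches 597 CPM.

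Mmp10 (stromelysin-2) had 1 UMI in Card14KI and 67 in WT fibroblasts, 66 of the WT UMIs being in 10 cells of cluster 8. Mmp11 (stromelysin-3), known from stroma around growing epithelium, had 27.9 CPM in Card14KI and 308 CPM in WT fibroblasts, a ratio of 0.0906 (0.0795 to 0.103). In cluster 8 itself the level was 1196 CPM in Card14KI and 1391 CPM in WT. Its 111 Card14KI UMIs were in 6 of 23 cells, however, with 97.3% in 3 cells, while 180 of 246 WT cells held a UMI. In cluster 12 it had 9 UMIs in Card14KI and 220 UMIs in WT, a ratio of 0.164 (0.0741 to 0.317), and in the collagen-rich fibroblasts 32.4 and 127 CPM. The lower Mmp11 was thus seen outside cluster 8, and within that cluster the level in Card14KI rested on 3 cells.

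The gelatinases cut denatured collagen and the collagen of basement membranes. Mmp2 (gelatinase A), a broadly made stromal enzyme, had 556 CPM in Card14KI and 738 CPM in WT fibroblasts, a ratio of 0.752 (0.728 to 0.778). It was lower in 5 of the 6 clusters with 50 or more cells in each library, among them collagen-rich cluster 1 with 546 CPM in Card14KI and 940 CPM in WT, and Pi16 cluster 3 had 823 and 797 CPM. Mmp9 (gelatinase B), known best from neutrophils and macrophages, had 0 UMIs in Card14KI and 1972 UMIs in WT fibroblasts, at least 328-fold lower with 3 counts in place of 0. Of the WT UMIs, 1960 were in 31 of the 246 WT cells of cluster 8, with 479 UMIs in the top cell. The fold therefore rests on that cluster, of which Card14KI supplied 23 cells. Over the 6 clusters with 50 or more cells in each library Mmp9 had 0 UMIs in Card14KI and 8 in WT. Of all 115 Mmp9 UMIs in Card14KI, 49.6% were in neutrophils, 34.8% in mononuclear phagocytes and 14.8% in keratinocytes, and of the 2296 in WT 85.9% were in fibroblasts, 9.06% in mononuclear phagocytes and 3.44% in neutrophils. Neutrophils held Mmp9 at 878 CPM in Card14KI and 1000 CPM in WT, a ratio of 0.877 (0.613 to 1.25), with a UMI in 25 of 32 Card14KI and 34 of 45 WT cells.

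In WT cluster 8 Mmp13, Mmp9 and Mmp10 were held by overlapping cells. Of its 51 cells with Mmp13 and 31 with Mmp9, 22 had both, and these held most of each, with 1832 of 2205 Mmp13 UMIs in the cells with Mmp9 and 1725 of 1960 Mmp9 UMIs in the cells with Mmp13. All 10 cells with Mmp10 held Mmp13. Timp1 was present in 44 of the 51 Mmp13 cells and 30 of the 31 Mmp9 cells, and in 148 of all 246 cells. Of its 1800 UMIs, 628 were in the Mmp13 cells and 1103 in the Mmp9 cells. Mmp11, present in 180 of the 246 cells, was in 46 of the Mmp13 cells and 23 of the Mmp9 cells. The Mmp9 cells held 438 of its 4191 UMIs. The macrophage markers summed to 0 CPM in the 23 Card14KI cells and 20.2 CPM in the 246 WT cells, the neutrophil markers to 32.3 and 22.9 CPM, and the cycling markers to 0 and 93.9 CPM. Immediate early genes summed to 11605 CPM in Card14KI and 5552 CPM in WT, and the median cell held 3011 UMIs in Card14KI and 9217 in WT. Their part in these results was not tested.

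**Figure D4:**
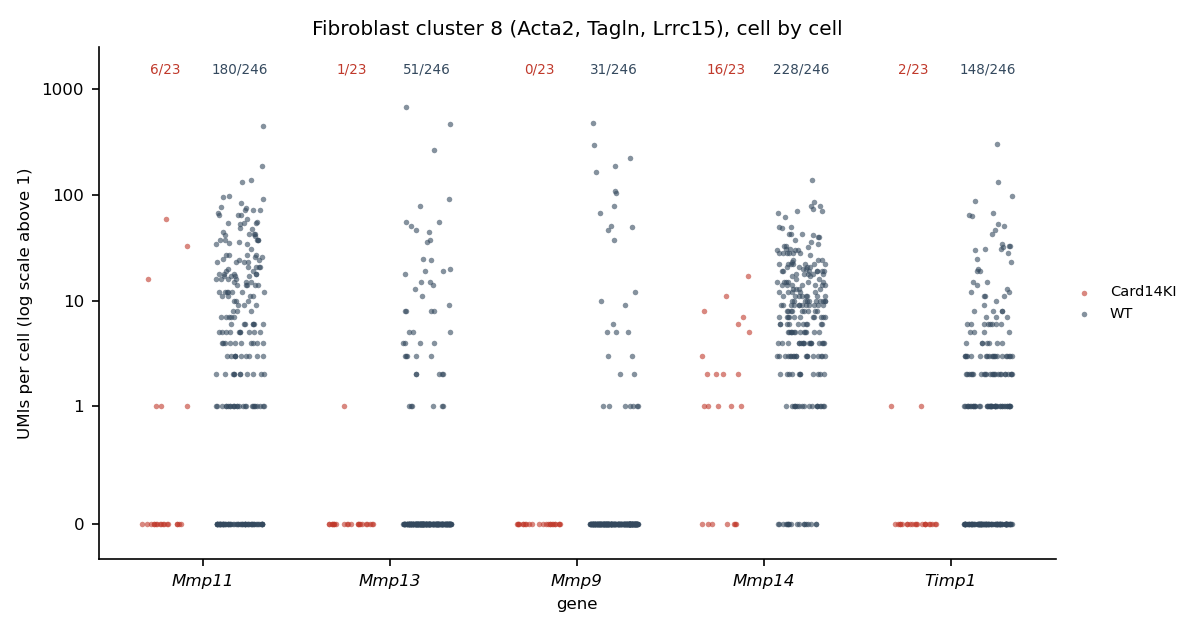
UMIs per cell (vertical axis, log scale above 1) of 5 genes (horizontal axis) in cluster 8, Card14KI in red left of WT in dark blue, 1 point per cell, with the number of cells holding a UMI over all cells of the cluster above. Mmp13 and Mmp9 are held by 1 and 0 of 23 Card14KI cells, and by 51 and 31 of 246 WT cells with up to 683 UMIs.

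The membrane-type metalloproteinases are anchored at the cell surface, and Mmp14 (MT1-MMP) is the main activator of the Mmp2 precursor. Mmp14 had 273 CPM in Card14KI and 571 CPM in WT fibroblasts, a ratio of 0.477 (0.456 to 0.499). In cluster 12 it had 288 CPM in Card14KI and 675 CPM in WT, a ratio of 0.426, and in cluster 1 426 and 611 CPM. The Pi16 clusters differed little, with 247 CPM in Card14KI and 281 CPM in WT in cluster 3 and 235 and 229 CPM in cluster 4. Mmp16 (MT3-MMP) was, among clusters of 50 or more cells in each library, highest in cluster 12, at 51.0 CPM in Card14KI and 50.8 CPM in WT. It was called lower in cluster 1, at 4.75 CPM in Card14KI and 10.8 CPM in WT, and over the 6 clusters with 50 or more cells in each library its ratio was 0.403 (0.258 to 0.612). Mmp17 (MT4-MMP) had 4 UMIs in Card14KI and 19 in WT fibroblasts, and was at 13.9 and 9.43 CPM in endothelial cells. Mmp15 (MT2-MMP) was not a fibroblast gene, with 5 UMIs in Card14KI and 8 in WT fibroblasts.

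Mmp23, Mmp19 and Mmp27 are less studied enzymes of the family. Mmp23 stood at 168 CPM in Card14KI and 172 CPM in WT, a ratio of 0.976 (0.917 to 1.04), and was highest in collagen-rich cells. Mmp19 was at 30.2 CPM in Card14KI and 48.6 CPM in WT over all fibroblasts and was called lower in collagen-rich cells, where it had 30.8 and 67.3 CPM. Mmp27 was at 29.9 CPM in Card14KI and 23.4 CPM in WT, a ratio of 1.28, with most of its level in cluster 1, where it had 89.6 and 71.1 CPM. It was higher in Card14KI in all 5 clusters tested with 50 or more cells in each library.

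Among the inhibitors Timp1, which is induced in wounds and inflamed tissue, differed most between the libraries. Fibroblasts held 27.7 CPM in Card14KI and 193 CPM in WT, a ratio of 0.144 (0.126 to 0.163). Cluster 8 had 2 of the 247 UMIs in Card14KI and 1800 of the 3447 UMIs in WT, the WT ones in 148 of 246 cells at 597 CPM. Over the 6 clusters with 50 or more cells in each library Timp1 was at 31.2 CPM in Card14KI and 107 CPM in WT, a ratio of 0.292 (0.253 to 0.337), which is still a call. Cluster 1 had 51.6 CPM in Card14KI and 198 CPM in WT, cluster 12 had a ratio of 0.163, and cluster 2 had 60.7 and 87.8 CPM. Pi16 cluster 3 had 14.2 CPM in Card14KI and 10.4 CPM in WT.

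Timp2, which inhibits Mmp2 and also helps Mmp14 activate it, stood at 2513 CPM in Card14KI and 2324 CPM in WT fibroblasts, a ratio of 1.08 (1.06 to 1.10). Over the 6 clusters with 50 or more cells in each library its ratio was 0.991 (0.974 to 1.01), with 2 clusters higher and 4 lower in Card14KI. The highest Timp2 level was in Pi16 cells, at 3571 CPM in Card14KI and 4592 CPM in WT in cluster 3. Timp3, which binds to the matrix itself, had 1089 CPM in Card14KI and 1179 CPM in WT fibroblasts, a ratio of 0.924. It was lower in all 6 clusters with 50 or more cells in each library, with ratios of 0.513 to 0.879, and in cluster 18 it had 2103 CPM in Card14KI and 4098 CPM in WT. Timp4 had 0 UMIs in the fibroblasts of both libraries, which with 3 UMIs as the limit allows up to 0.336 CPM in Card14KI and 0.168 CPM in WT. Endothelial cells held 81.5% of its Card14KI UMIs and 59.0% of its WT UMIs, at 57.2 CPM in Card14KI and 42.0 CPM in WT.

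Of the Adamts genes, Adamts2, Adamts3 and Adamts14 remove the amino propeptide of fibrillar procollagens. Adamts2 had 239 CPM in Card14KI and 443 CPM in WT fibroblasts, a ratio of 0.538 (0.513 to 0.565). Cluster 1 had 479 CPM in Card14KI and 828 CPM in WT, a ratio of 0.579, and cluster 12 had 240 and 629 CPM, a ratio of 0.381. Adamts14 had 5.94 CPM in Card14KI and 12.7 CPM in WT, and Adamts3 had 6 and 14 UMIs. Col1a1, whose product these enzymes trim, stood at 2630 CPM in Card14KI and 10052 CPM in WT fibroblasts.

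The enzymes Adamts1, Adamts4, Adamts5, Adamts9, Adamts15 and Adamts20 cut aggrecan or versican. Adamts1 had 532 CPM in Card14KI and 390 CPM in WT fibroblasts, a ratio of 1.36 (1.32 to 1.42), but its direction differed between clusters. It was higher in cluster 1, at 429 CPM in Card14KI and 246 CPM in WT, and in cluster 12, at 339 and 167 CPM. It was lower in the other 4 clusters with 50 or more cells in each library, among them cluster 18 with 316 CPM in Card14KI and 519 CPM in WT, a ratio of 0.608 (0.493 to 0.747), and Pi16 cluster 4, where it was highest, with 898 and 960 CPM. Adamts5 had 574 CPM in Card14KI and 486 CPM in WT, a ratio of 1.18, and 617 and 269 CPM in cluster 12, a ratio of 2.30. Adamts9 had 15.2 CPM in Card14KI and 14.7 CPM in WT over all fibroblasts. It was called lower in collagen-rich cells, with 1 UMI in Card14KI and 37 UMIs in WT, but not in cluster 1 alone. Adamts4 was at 13.9 CPM in Card14KI and 36.0 CPM in WT, a ratio of 0.386 (0.316 to 0.469). Adamts15 had 9.87 CPM in Card14KI and 34.0 CPM in WT, a ratio of 0.290 (0.229 to 0.363). It was called lower in the Pi16, Myoc and collagen-rich fibroblasts. In the collagen-rich ones it was not called in cluster 1 alone. Their log2 ratio of Adamts15 was 0.27 when the cells were clustered at resolution 0.5. Adamts20, known from the skin as a gene for melanoblast survival, had 3 UMIs in Card14KI and 20 in WT.

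Among the remaining Adamts genes, Adamts12 had 24.2 CPM in Card14KI and 41.5 CPM in WT, and Adamts7, which like Adamts12 cuts cartilage oligomeric matrix protein, had 1.12 and 9.46 CPM. Adamts10, which binds fibrillin, had 25.7 CPM in Card14KI and 34.4 CPM in WT. Adamts6 had 7.29 CPM in Card14KI and 7.55 CPM in WT, but was called higher in collagen-rich fibroblasts, at 14.6 and 4.92 CPM, and in Myoc fibroblasts, at 8.68 and 3.17 CPM. Adamts18 had 2.02 CPM in Card14KI and 31.6 CPM in WT, a ratio of 0.0639 (0.0376 to 0.102), and cluster 8 held 0 of the 18 UMIs in Card14KI and 330 of the 564 UMIs in WT. Pi16 fibroblasts held all 20 of the Adamts16 UMIs of Card14KI fibroblasts and 69 of the 87 of WT fibroblasts, at 4.88 CPM in Card14KI and 22.7 CPM in WT, a ratio of 0.214 (0.123 to 0.357).

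Of the 5 Adamtsl genes, which modulate the matrix without cutting it, 4 had a ratio above 1. Adamtsl3 had 20.7 CPM in Card14KI and 9.01 CPM in WT fibroblasts, a ratio of 2.30 (1.85 to 2.86), and was above 1 in all 4 clusters tested with 50 or more cells in each library. Adamtsl1 had 156 CPM in Card14KI and 117 CPM in WT, a ratio of 1.34, and Adamtsl4, a fibrillin-binding protein, had 48.2 and 29.8 CPM, a ratio of 1.62 (1.42 to 1.84). Over the 6 clusters with 50 or more cells in each library these ratios were 1.19 (1.11 to 1.28) and 1.34 (1.17 to 1.53). Adamtsl4 was highest in Pi16 cluster 3, at 89.2 CPM in Card14KI and 102 CPM in WT. Adamtsl5 had a ratio of 1.01 (0.903 to 1.14), and 0.918 without the uneven clusters, and Adamtsl2, a regulator of TGF-beta availability, had 4.26 and 5.65 CPM.

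Calls were also counted by fibroblast subset. Of 25 genes tested in Pi16 fibroblasts 4 were called, Mmp3 higher and Adamts15, Adamts16 and Adamts19 lower, against 5.55% of all features called, 2.08% higher and 3.47% lower. Of 25 in Myoc fibroblasts 6 were called, against 5.93% (2.03% higher, 3.9% lower), with Adamts6 higher and Adamts4, Adamts14, Adamts15, Adamtsl2 and Mmp11 lower. Of 28 in collagen-rich fibroblasts 9 were called, against 7.95% (2.69% higher, 5.27% lower), with Adamts6 higher and Adamts4, Adamts9, Adamts15, Adamts18, Mmp8, Mmp11, Mmp19 and Timp1 lower. The collagen-rich class joins cluster 1 with the uneven cluster 10. In cluster 1 alone Adamts6 was still called higher, and Adamts18, Mmp8, Mmp11 and Timp1 lower. Mmp16 was also lower there, while Adamts4, Adamts9, Adamts15 and Mmp19 were not called. In the remaining class, made of clusters 8, 12 and 20, 19 of 32 were called, against 16.5% (6.18% higher, 10.3% lower). Adamtsl2 was higher there, and Adamts2, Adamts4, Adamts7, Adamts9, Adamts12, Adamts14, Adamts15, Adamts17, Adamts18, Mmp2, Mmp3, Mmp9, Mmp10, Mmp11, Mmp13, Mmp14, Mmp23 and Timp1 were lower. Its 3 clusters were held in unlike shares by the libraries. Cluster 20 had 46 Card14KI cells with a median of 25189.5 UMIs and 103 WT cells with a median of 5415. With the clusters weighted alike the log2 ratio of Adamtsl2 was -0.19 and that of Adamts14 0.18, each opposite in sign to its call. In cluster 12 alone Adamts1 and Adamts5 were called higher. Adamts2, Adamts4, Adamts12, Adamts15, Adamts18, Mmp11, Mmp14, Mmp23 and Timp1 were called lower there, while Adamts14, Mmp2 and Mmp3 were not called. The leading genes of clusters 12 and 20 are not contractile.

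In mononuclear phagocytes 9 genes were tested and 5 were called, 2 higher and 3 lower, against 8.07% of all features (2.73% higher, 5.34% lower). Mmp12, the macrophage elastase, was held by these cells alone in Card14KI (100% of its UMIs) and almost alone in WT (98.1%). Within cluster 14, named dendritic cell or class II monocyte and also rich in Lyz2 and Retnla, it had 206 CPM in Card14KI and 855 CPM in WT, a ratio of 0.242 (0.189 to 0.305). A UMI was found in 10 of 55 Card14KI and 52 of 146 WT cells, and at 2000 UMIs per cell in 12.0% and 29.6%. The top cell held 41.0% of the UMIs in Card14KI and 16.3% in WT. Macrophage markers in this cluster summed to 1008 CPM in Card14KI and 2472 CPM in WT, and their part in the difference was not tested.

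In the C1q macrophages, 26 Card14KI and 34 WT cells, Mmp9 had 239 CPM in Card14KI and 1249 CPM in WT, a ratio of 0.191 (0.129 to 0.275). A UMI was found in 13 of the 26 Card14KI cells and all 34 WT cells, and at 2000 UMIs per cell in 20.8% of Card14KI and 83.9% of WT cells. Macrophage markers stood at 22059 CPM in Card14KI and 21885 CPM in WT. Fibroblast markers summed there to 2310 CPM in Card14KI and 5278 CPM in WT, and their part in the difference was not tested. The class had under 50 cells in each library, so no call was made. Langerhans cells had 4 Mmp9 UMIs in Card14KI and 26 in WT. Over all mononuclear phagocytes Mmp9 was called lower, at 59.4 CPM in Card14KI and 138 CPM in WT, and Mmp14 too, at 16.3 and 48.5 CPM. The 2 higher calls, Mmp2 and Mmp11, rested on 1 Card14KI cell each. Mmp19 stood at 60.9 CPM in Card14KI and 69.0 CPM in WT in cluster 14.

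**Figure D5:**
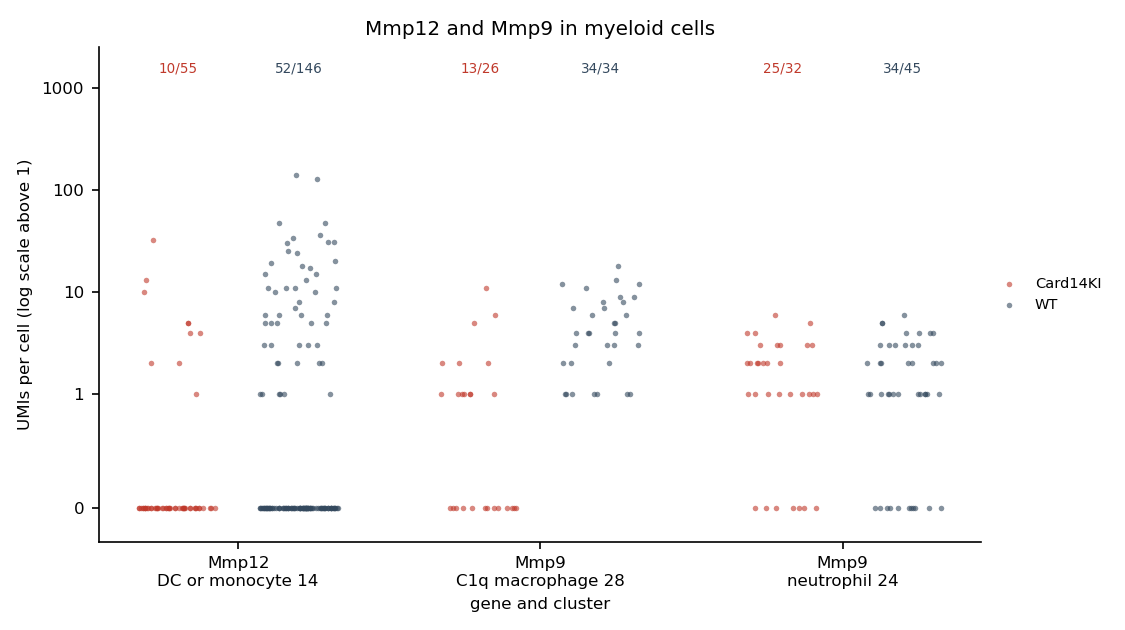
UMIs per cell (vertical axis, log scale above 1) of Mmp12 in cluster 14 and of Mmp9 in C1q macrophages and neutrophils (horizontal axis), Card14KI in red left of WT in dark blue, 1 point per cell, with the number of cells holding a UMI over all cells above. Mmp9 is held by 13 of 26 Card14KI and all 34 WT macrophages, and by 25 of 32 Card14KI and 34 of 45 WT neutrophils.

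In endothelial cells 13 genes were tested and 3 were called, 1 higher and 2 lower, against 9.09% of all features (2.88% higher, 6.21% lower). The cells carried mainly the lymphatic markers, and 7 Card14KI and 8 WT cells had more blood vessel than lymphatic marker UMIs. Adamts1 was higher, at 853 CPM in Card14KI and 356 CPM in WT, a ratio of 2.40 (2.14 to 2.70). A UMI was found in 42 of 74 Card14KI and 44 of 90 WT cells, and the top cell held 24.8% and 17.6% of the UMIs. At 2000 UMIs per cell the shares of cells with a UMI were 35.4% in Card14KI and 30.8% in WT. Cells with more lymphatic marker UMIs had Adamts1 at 860 CPM in Card14KI and 304 CPM in WT, a ratio of 2.83 (2.49 to 3.21), and the few with more blood vessel marker UMIs at 615 and 1067 CPM. The 9 immediate early genes, all of them higher, summed to 23226 CPM in Card14KI and 10140 CPM in WT in these cells. Their part in the Adamts1 difference was not tested. Adamtsl1 was lower, at 71.0 CPM in Card14KI and 171 CPM in WT, and Mmp14 at 44.2 and 105 CPM. Timp3 stood at 2961 CPM in Card14KI and 3507 CPM in WT, and Adamts4 at 66.7 and 61.7 CPM. One WT cell held 42 of the 72 Adamts4 UMIs of WT, and in the cells with more lymphatic marker UMIs Adamts4 was at 62.5 CPM in Card14KI and 24.8 CPM in WT, a ratio of 2.52 (1.59 to 4.08).

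Keratinocytes held a small part of each family, at most 11.1% of the UMIs in Card14KI (Adamts) and 9.08% in WT (Timp). Single genes had larger shares there. They were 82.5% of the Mmp28 UMIs in Card14KI and 40.4% in WT, 68.6% and 57.1% for Mmp15, and 54.9% and 7.94% for Adamts14. For Adamts1 they were 20.98% in Card14KI and 20.81% in WT. Of the 24 genes tested in keratinocytes 13 were called, 2 higher and 11 lower, against 15.7% of all features (4.36% higher, 11.3% lower). Adamts14 and Mmp28 were higher and Adamts2, Adamts3, Adamts9, Adamts10, Adamts20, Adamtsl1, Mmp11, Mmp23, Timp1, Timp2 and Timp3 were lower. This comparison mixed unlike cells: outer root sheath cells (cluster 11) were 10 of the 832 cells in Card14KI and 238 of the 954 in WT. Inner root sheath cells (cluster 19) were 1 Card14KI and 156 WT cells, the WT ones with 5761978 of the 23233956 UMIs of WT keratinocytes. Spinous cells were 439 in Card14KI and 184 in WT. With the clusters weighted alike in the libraries the log2 ratios of Timp3, Timp2, Adamts9, Adamts14 and Mmp28 were -0.38, -0.15, -0.49, 0.39 and 0.29, none of them past 2-fold, and that of Mmp23 was 0.31. Cluster 11 held Timp3 at 543 CPM in Card14KI and 897 CPM in WT, and all 99 Adamts20 UMIs of WT keratinocytes, against 0 in Card14KI. Timp2 was at 299 CPM in Card14KI and 273 CPM in WT in the same cluster, and at 20.3 and 87.7 CPM over all keratinocytes. Lymphocytes held Timp2 at 117 CPM in Card14KI and 77.6 CPM in WT.

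In cluster 9, which met the marker rule for basal keratinocytes but was led by Akr1c18, Apoc1 and Fgfbp1, as sebocyte cluster 15 also was in part, and is therefore left without a name, 6 genes were tested and 0 were called, against 6.06% of all features. Timp3 there had 119 CPM in Card14KI and 204 CPM in WT. In the spinous class, made of cluster 7 and of cluster 5, which was led by the basal Krt14, Krt5 and Krt15 as well as by Krt1 and Krt10, 14 genes were tested and 4 were lower, Adamts2, Adamts5, Adamtsl1 and Timp2, against 6.61% called and 2.34% lower. None of these exceeded 20.8 CPM. Fibroblast markers summed to 25.6 CPM in Card14KI and 156 CPM in WT in cluster 5 and to 22.4 and 334 CPM in cluster 7, and their part in the lower calls was not tested. In granular cells 4 were tested and 3 were lower, Adamts1, Mmp2 and Timp2, against 17.1% called and 4.16% lower, with 3, 9 and 14 UMIs in Card14KI and 28, 21 and 75 in WT. Fibroblast markers summed there to 20.5 CPM in Card14KI and 402 CPM in WT, and their part in these calls was not tested. Upper hair follicle cells had 10 genes tested and 1 called, Adamts5, higher at 18.5 CPM in Card14KI and 8.71 CPM in WT, against 5.64% called and 2.75% higher. In one of the 2 upper follicle clusters (cluster 13) Timp3 had 322 CPM in Card14KI and 66.9 CPM in WT, a ratio of 4.80 (3.80 to 6.14), with a UMI in 51 of 125 Card14KI and 26 of 105 WT cells. In the other (cluster 21) Timp3 had 117 CPM in Card14KI and 130 CPM in WT, a ratio of 0.898 (0.767 to 1.05), and over both clusters it was not called, at 190 and 108 CPM. Fibroblast markers in cluster 13 summed to 25.9 CPM in Card14KI and 194 CPM in WT. Mmp28 (epilysin) was at 3.62 CPM in Card14KI and 3.12 CPM in WT in cluster 5, a ratio of 1.16 (0.521 to 2.92). Mmp15 had 51 UMIs in Card14KI and 5 UMIs in WT there, a ratio of 3.05 (1.23 to 9.80), below 6 CPM in both libraries. In sebocytes 6 genes were tested and 0 were called, against 5.32%.

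Genes of the same pathways were read in fibroblasts beside the family. Of the 7 plasminogen activation genes tested, 4 were higher and 3 lower and only Serpinb2 was past 2-fold, at 9.30 CPM in Card14KI and 3.19 CPM in WT. Plat was the most abundant, at 225 and 168 CPM. Of 9 ADAM sheddases 8 were lower, with Adam12 at 4.48 CPM in Card14KI and 58.1 CPM in WT and Adam19 at 20.6 and 41.8 CPM past 2-fold, while Adam23 was higher at 77.9 and 36.9 CPM. Of 7 cathepsin genes 6 were lower, with Ctsk, the collagen-degrading cysteine protease, past 2-fold at 592 CPM in Card14KI and 1448 CPM in WT, and Ctss past 2-fold as well. Of 9 procollagen processing genes 7 were lower, with Lox, the collagen cross-linker, at 123 CPM in Card14KI and 250 CPM in WT. Of the 9 matrix substrates tested 7 were past 2-fold lower, Col1a1, Col1a2, Col3a1, Col4a1, Col7a1, Vcan and Acan, where 6.31% of all features were. By cluster, 0 were past 2-fold lower in clusters 2, 3 and 4, 1 in cluster 18, 4 in cluster 1 and 5 in cluster 12. Dcn, the most abundant, was at 12910 CPM in Card14KI and 11393 CPM in WT. The 6 other protease regulators had 1 gene past 2-fold, Spock3, with 3 UMIs in Card14KI and 17 in WT, while Lrp1, the most abundant, stood at 573 and 678 CPM. Reck, a membrane-anchored inhibitor, stood at 147 and 104 CPM. Over all features the median log2 difference in CPM + 10 was -0.07, and the 9 immediate early genes, all higher and Atf3 and Nr4a1 past 2-fold, summed to 14081 CPM in Card14KI and 10120 CPM in WT.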

How the data were processed

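Single-cell libraries of 1 Card14KI and 1 WT mouse were deposited by the authors as unnormalized UMI counts of genes in cell barcodes (3348 Card14KI and 5016 WT barcodes, 41460580 and 54816411 UMIs). Cell Ranger 6.0.2 and mm10 are named per the submitters' processing notes, but Cell Ranger 5.0.0 per the file headers, and which version was used is not known. For the gene annotation, the release was not given in the sources used here. Genes were located by Ensembl ID in GENCODE vM21 (GRCm38). The members and lists were chosen with earlier results of these data known.

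Barcodes with under 500 genes or 20% or more mitochondrial UMIs were removed (435 Card14KI, 681 WT). Scrublet's automatic threshold marked 3 and 2 cells and was taken as not working, so the top scores were removed at 0.8% per 1000 barcodes (78 and 174 cells). The libraries were clustered together with scanpy 1.11.5 and leidenalg 0.10.2 (2000 variable genes, 30 principal components, 20 neighbours, resolution 1), leaving out the member, cell cycle, mitochondrial, ribosomal, haemoglobin and sex-linked genes; clusters were named where at least 3 markers of a fixed list were in 10% or more of the cells. Levels, ratios and intervals used numpy 2.4.6 and scipy 1.17.1 on Python 3.11.15, with a library at 0 counts set to 3 in a ratio. Ratios and calls were checked on simulated Poisson counts at the pooled fibroblast means. The simulated counts had no unevenness between cells or in cluster makeup, so the check cannot speak to those. Named genes were those with 100 or more UMIs, those called in a class of 50 or more cells in each library, and related-list genes past 2-fold or most abundant. Alternatives (filters, doublets, class gating, resolution, scaling, top cell, cluster weights, UMI minimum, fold, pseudocount) were recomputed.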

Additional observations from a re-analysis of the deposited data

How the results depend on the processing

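No paired analysis was possible because each group is 1 mouse and the comparison comes from no test. Over the alternatives, 84 gene ratios gave 681 values, of which 588 moved by less than their counting interval, 87 by more and 6 changed sign. The changes were not spread evenly over the alternatives. When the cluster makeup of the libraries was equalised, 26 ratios moved by more, 4 changed sign and 54 moved by less. When the uneven fibroblast clusters were dropped, 9 ratios moved by more and 7 by less. Among the other alternatives followed by ratio, the number moved by more ran from 2 (median-ratio scaling) to 14 (class gating). Leaving out the fibroblast clusters under 50 cells in a library, chosen after seeing the data, gave 10 genes past 2-fold in fibroblasts in place of 18. In mononuclear phagocytes the count of 5 became 9 with doublets kept and 3 with a minimum of 50 UMIs. In endothelial cells the count of 3 became 5 with a minimum of 10 UMIs and 5 at a fold of 1.5. With clusters weighted alike in both libraries the log2 ratio changed sign for Adamts14 in fibroblasts (0.052), Mmp23 in keratinocytes (0.31), and Adamtsl2 (-0.19) and Adamts14 (0.18) in the class of clusters 8, 12 and 20. It changed sign for Mmp2 in mononuclear phagocytes with doublets kept (-0.51) and for Adamts15 in collagen-rich fibroblasts at resolution 0.5 (0.27). The cause was not tested. The log2 ratio of Mmp3 in Pi16 fibroblasts, 1.45, lay between 1.28 and 1.67 under every alternative, that of Mmp12 in mononuclear phagocytes, -2.32, between -2.83 and -2.07, and that of Adamts1 in endothelial cells, 1.26, between 1.13 and 1.40. Scaling by the median ratio over genes moved fibroblasts by -0.13 and endothelial cells by -0.14 (log2), and with it Mmp14 in fibroblasts was at -0.94, no longer past 2-fold. Clusters of under 50 cells, macrophages and neutrophils among them, limit what the depth can show.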
